A study of Mus musculus with 27 samples.

Results

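The comparison sets 2 kinds of stromal library against each other: 7 rich in Ccl21a, called here the Ccl21a-high libraries, and 8 poor in Ccl21a, Ptprc and Msln and rich in Pi16 and Fbn1, called here the adventitial-type libraries. They are 15 of the 27 bulk RNA-seq libraries of the series. Membership was set by measured levels alone, as CPM, reads of a gene per 1000000 reads in genes. A Ccl21a-high library had more than 1000 CPM of Ccl21a, and an adventitial-type library had less than 100 CPM each of Ptprc, Ccl21a and Msln. Because the sides were chosen from the same counts, every difference between them is a description of these libraries, and the adjusted p-values behind the calls support nothing further.

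The libraries came from NOD mice, a strain that develops autoimmune diabetes, killed at 12 weeks of age. Those labelled TG- are NOD/ShiLtJ, and those labelled TG+ are Ins2-CCL21 NOD, which carry a transgene meant to make beta cells secrete the chemokine CCL21. Cells from pancreatic islets or skin-draining lymph nodes were sorted with fluorescent antibodies into leukocytes (CD45), stromal cells with high or low podoplanin (gp38) and lymph node fibroblastic reticular cells (FRC), according to the titles. No label tells how many mice stand behind a library, so the spread between libraries may be technical in part.

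Fibroblastic reticular cells build the scaffold of the T cell zone of lymph nodes. Lymphotoxin and TNF signals from lymphocytes, through NF-kB, keep them mature, and they in turn make the CCR7 ligands CCL21 and CCL19, which guide T cells and dendritic cells, and IL-7 and BAFF, which keep lymphocytes alive. Adventitial fibroblasts lie in the outer coat of vessels and in the connective tissue of most organs, where they make collagen, elastic fibres and microfibrils. They are known by the peptidase inhibitor Pi16, the peptidase Dpp4 and the sialomucin Cd34, and are often described as a reserve from which other fibroblasts arise.

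The titles did not predict the side. The Ccl21a-high side held 4 libraries labelled islet CD45 and 3 labelled islet gp38 low, and none of the 7 libraries labelled lymph node FRC. On the adventitial-type side were 5 libraries labelled islet gp38 high or low, 2 labelled islet CD45 and 1 labelled lymph node FRC. Of the 12 other libraries, 8 had 100 CPM or more of Ptprc, the gene for CD45, and only 1 of these 8 was labelled islet CD45, while 5 were labelled lymph node FRC. The labels of cell population and tissue therefore go against the markers, and each library is named below by its label without vouching for it. Of the Ccl21a-high libraries 3 were labelled TG+ and 4 TG-, and of the adventitial-type libraries 6 and 2 (Fisher's exact test, two-sided, p = 0.315), so the labelled genotype was not shown to differ between the sides.

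Each level below is given as the lowest, median and highest CPM over the libraries of a side. Ccl21a was at 2162, 3582 and 5685 CPM on the Ccl21a-high side and at 0, 0.471 and 4.69 CPM on the adventitial-type side. The highest value among the other 12 libraries was 5.28 CPM, so no library lay near the limit. Ptprc was at 1.28, 2.81 and 5.79 CPM on the Ccl21a-high side and at 0.238, 0.558 and 1.73 CPM on the adventitial-type side, and the lowest Ptprc value among the leukocyte-rich libraries was 169 CPM. Msln, a mesothelial gene, stayed at or below 0.0788 CPM in the Ccl21a-high libraries and lay between 0.670 and 2.52 CPM in the adventitial-type ones, against a lowest value of 573 CPM in the Msln-rich libraries outside the comparison. Ccl19 and Grem1 were high on the first side and low on the second, and Pi16 and Fbn1 the reverse. These 4 markers were given together with the names of the sides, so they describe the names and do not test them. Pdpn, which encodes the gp38 antigen of the sort, was at 61.7, 93.3 and 103 CPM on the Ccl21a-high side and 51.1, 66.2 and 97.3 CPM on the adventitial-type side, and the ranges overlapped.

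**Figure D1:**
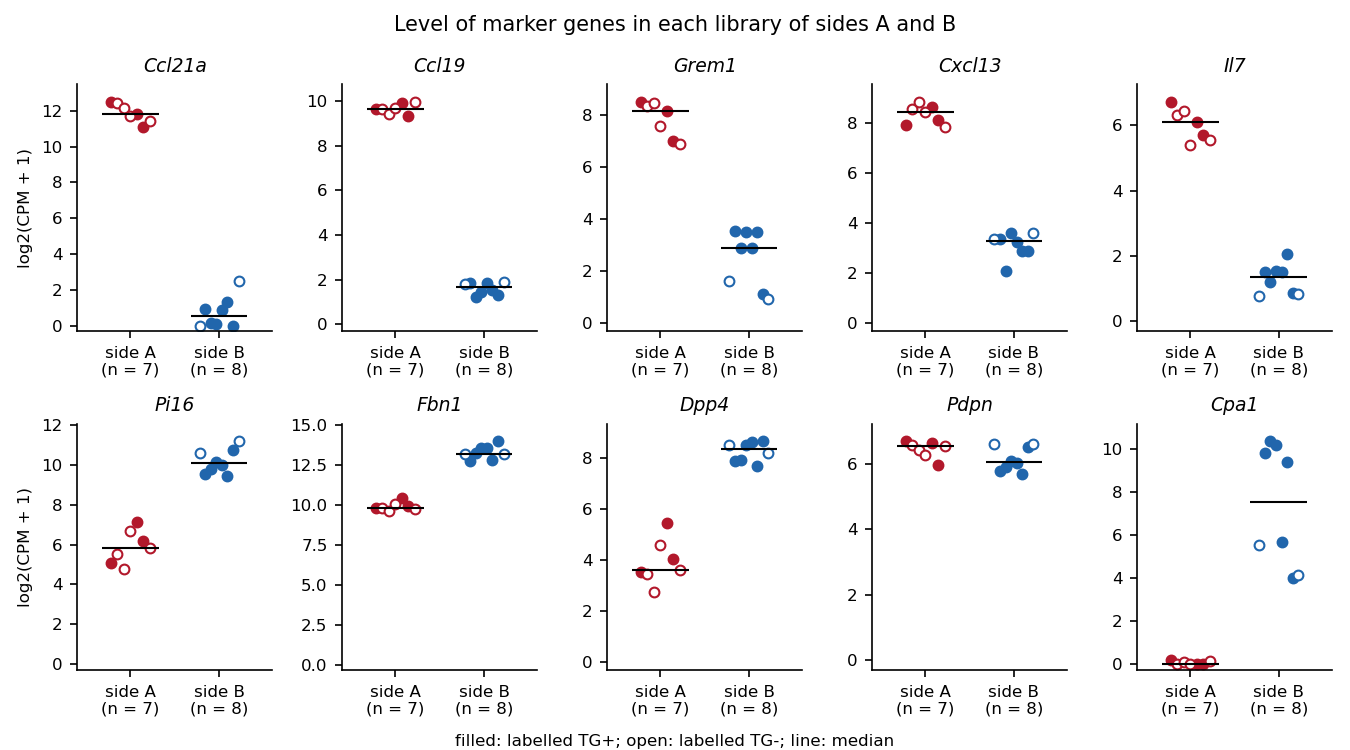
Level of 10 marker genes in every library, as log2(CPM + 1), for the 7 Ccl21a-high libraries (side A, red) and the 8 adventitial-type libraries (side B, blue); filled points are labelled TG+, open points TG-, and the line is the median. Ccl21a, Ccl19, Grem1, Cxcl13 and Il7 stand higher on side A, Pi16, Fbn1 and Dpp4 higher on side B, Pdpn overlaps, and Cpa1 is near 0 in every library of side A.

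Reads in genes ranged from 9609428 to 19372125 on the Ccl21a-high side and from 8959919 to 25194443 on the adventitial-type side, so that 3 reads were worth between 0.119 and 0.335 CPM. The noncoding transcript Gm26917 took 9.78% to 22.2% of the reads on the Ccl21a-high side and 5.39% to 7.93% on the other. Cpa1, the pancreatic acinar carboxypeptidase, was at most 0.118 CPM in the 7 Ccl21a-high libraries, although all 7 are labelled pancreatic islets. It was at 15.02, 362 and 1309 CPM on the adventitial-type side and at least 13.2 CPM in the 12 libraries outside the comparison, those labelled lymph node included. Where a marker of another cell type moves with a side in these bulk samples, fewer cells of a type and less RNA per cell cannot be told apart.

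Of 14878 genes tested, 7320 were called different at an adjusted p under 0.05 (edgeR's quasi-likelihood test with Benjamini-Hochberg adjustment), or 49.2%. Of all genes, 24.0% were called higher on the Ccl21a-high side (3574 genes) and 25.2% higher on the adventitial-type side (3746 genes). A stricter reading asks that the CPM ranges do not overlap, and 10.4% of genes (1544) met it with the Ccl21a-high side above and 16.5% (2462) with the adventitial-type side above. The median log2 difference, Ccl21a-high minus adventitial-type, was -0.014. A share of a gene group near these values is no result about the group. Library profiles correlated at a mean of 0.972 among the 21 pairs within the Ccl21a-high side, 0.959 among the 28 pairs within the adventitial-type side and 0.774 among the 56 pairs between them (Pearson's r across genes of log2 CPM, with genes not independent). The first principal component separated the sides and held 75.6% of the variance.

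**Figure D2:**
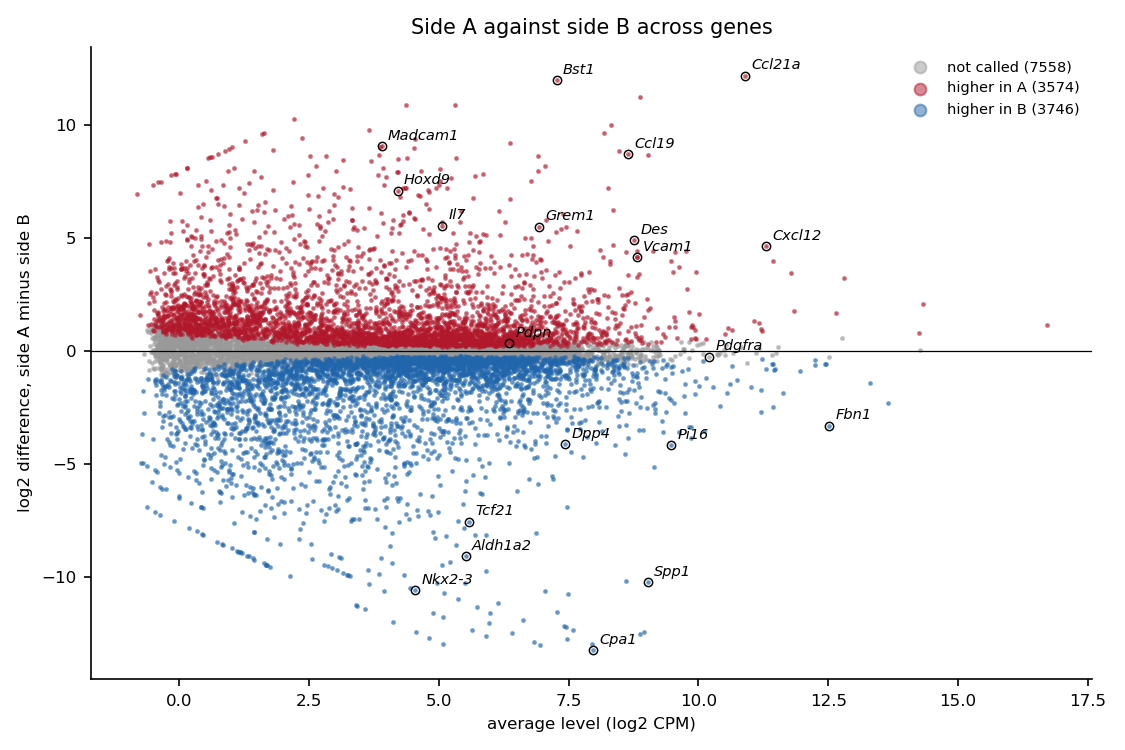
Log2 difference, side A (Ccl21a-high, n = 7) minus side B (adventitial-type, n = 8), against the average level in log2 CPM for the 14878 genes tested; red and blue points were called higher on side A (3574) or side B (3746), grey points were not called. Ccl21a, Bst1 and Ccl19 lie at the top, Pi16, Fbn1 and Dpp4 below 0, and Cpa1 and Spp1, genes of pancreatic epithelium, at the bottom.

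Chemokines and guidance cues of lymphoid stroma were mostly higher on the Ccl21a-high side. Of 20 genes on the list 18 could be tested, 14 were called higher on the Ccl21a-high side and 3 on the adventitial-type side, and the median log2 difference was 3.35. Ccl21a, which the rule used, is on this list. Without it 13 of 17 were called higher on the Ccl21a-high side and 3 on the other, at a median of 3.29. Ccl19, the second CCR7 ligand, was at 636, 808 and 984 CPM against 1.30, 2.21 and 2.68 CPM, a log2 difference of 8.71 ± 0.24 (SE, n = 7 and 8). Cxcl13, which draws B cells and follicular T cells through CXCR5, was at 227, 345 and 448 CPM against 3.32, 8.86 and 11.2 CPM, a difference of 5.43 ± 0.27. Both were high in all 7 libraries, with no overlap. Cxcl12, the CXCR4 ligand, was at 4173, 4768 and 6042 CPM against 174, 215 and 253 CPM, so the adventitial-type libraries also held it, at a level lower by 4.64 ± 0.17 on the log2 scale.

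The genes that shape lipid cues went the same way. Ch25h, which makes the precursor of the EBI2 ligand, was at 10.2, 14.7 and 19.1 CPM against 0.781, 1.66 and 2.01 CPM. Enpp2, the enzyme autotaxin that makes lysophosphatidic acid, was at 1432, 1821 and 2540 CPM against 130, 173 and 225 CPM, a log2 difference of 3.50 ± 0.17. Against the direction of the list stood Ackr4, the scavenger receptor that removes CCL21 and CCL19. It was at 0.225, 0.671 and 2.60 CPM in the Ccl21a-high libraries and at 33.5, 38.8 and 49.8 CPM in the adventitial-type ones, a log2 difference of -5.37 ± 0.35. Ackr3, which scavenges CXCL12 and was picked out after its values were seen, was also lower where its ligand was high, at 25.2, 30.0 and 70.9 CPM against 273, 515 and 736 CPM. For both chemokine systems, then, the side with more ligand transcript had less of the scavenger's. Ccl21b, a near-identical copy of Ccl21a, was at most 2.30 CPM and could not be tested, and reads shared by such copies are not placed by a counter that keeps unique matches only.

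Cytokines that keep lymphocytes alive were higher or not called. All 15 genes of the list could be tested, 10 were called higher on the Ccl21a-high side, none on the other, and the median was 1.62. Il7, the survival factor of naive T cells, was at 41.4, 67.3 and 104 CPM against 0.706, 1.57 and 3.17 CPM, a log2 difference of 5.56 ± 0.26. Tnfsf13b, which encodes BAFF, was at 119, 148 and 182 CPM against 11.8, 16.1 and 20.6 CPM, a difference of 3.33 ± 0.19. Il15 was at 2.55, 5.57 and 8.69 CPM against 3.68, 5.42 and 6.71 CPM and was not called, so it did not follow Il7. Il33, an alarmin stored in stromal nuclei, was at 186, 255 and 339 CPM against 170, 189 and 302 CPM, and Il6 at 36.1, 131 and 215 CPM against 23.7, 34.3 and 45.3 CPM. Both were called higher on the Ccl21a-high side, but their ranges overlapped, for Il6 because the library labelled islet CD45 TG+ replicate 3 was at 36.1 CPM while the other 6 were at 116 CPM or more.

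Genes that name reticular cell subsets were split. Of 24 on the list 15 were called higher on the Ccl21a-high side and 6 on the adventitial-type side, with a median of 2.03. Bst1, the surface enzyme BP-3 of T zone reticular cells, was at 201, 342 and 438 CPM against at most 0.163 CPM, and Madcam1, the addressin of marginal reticular cells, at 22.9, 28.1 and 37.7 CPM against at most 0.217 CPM. Tnfsf11, which encodes RANK ligand, was at 11.4, 14.9 and 24.7 CPM against at most 0.432 CPM. In genes with so few reads on one side a fitted fold depends on the smoothing of the model, and only levels are given. Grem1, a BMP antagonist of T zone reticular cells, was at 116, 284 and 357 CPM against 0.893, 6.35 and 10.5 CPM, a difference of 5.52 ± 0.46.

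Adhesion molecules on which lymphocytes crawl were higher on the same side. Vcam1 was at 674, 888 and 1119 CPM against 41.4, 50.2 and 66.7 CPM, a log2 difference of 4.16 ± 0.14, and Icam1 at 385, 426 and 527 CPM against 69.7, 103 and 117 CPM, a difference of 2.30 ± 0.13. Apoe, the lipid carrier, ranged from 10599 to 16123 CPM against 1219 to 1786 CPM, and Spib, an Ets family transcription factor, from 183 to 246 CPM against 0.761 to 1.91 CPM; both were picked out after their values were seen. Among the list's members called higher on the adventitial-type side was Nkx2-3, a homeobox gene of spleen and gut stroma, which reached no more than 0.0788 CPM in any Ccl21a-high library and was at 32.5, 40.0 and 62.8 CPM in the adventitial-type ones. The markers of T zone and marginal reticular cells named here thus stood on one side and the visceral Nkx2-3 on the other. The list as a whole was less clear, since all 6 of its genes called higher on the adventitial-type side had ranges without overlap.

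Genes of the lymphotoxin, TNF and NF-kB route were mostly higher on the Ccl21a-high side, although the receptor was not. Of 24 genes 22 could be tested, 17 were called higher there and 2 lower, with a median of 1.86. Ltbr, the lymphotoxin beta receptor, was at 70.0, 76.1 and 84.7 CPM against 62.9, 74.8 and 104 CPM and was not called. Nfkb2, the precursor of p52, was at 278, 315 and 362 CPM against 51.6, 63.1 and 92.1 CPM, a log2 difference of 2.32 ± 0.14. Its partner Relb was at 77.9, 89.0 and 96.1 CPM against 21.9, 27.4 and 35.7 CPM, a difference of 1.81 ± 0.11.

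Regulators within the pathway differed too. Tnfaip3, the deubiquitinase A20 that ends NF-kB signalling, was at 433, 634 and 785 CPM against 24.8, 39.5 and 70.6 CPM, a log2 difference of 3.99 ± 0.20. Traf1, an adaptor that is itself induced by NF-kB, was at 29.4, 36.2 and 50.5 CPM against 0.480, 1.14 and 1.61 CPM, a difference of 5.24 ± 0.18. One of the 2 called lower was Tnfrsf11b, which encodes osteoprotegerin, the decoy receptor of RANK ligand, at 1.14, 2.63 and 5.14 CPM against 21.3, 38.1 and 56.3 CPM, a difference of -3.64 ± 0.27. As with the chemokines, the ligand Tnfsf11 and its decoy Tnfrsf11b lay on opposite sides.

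Promoters of 4 of these genes are shown because the genes were higher together and each holds letters of the NF-kB motif (GGG, any 3 bases, then TTCC), searched on both strands over the 250 bases before the start. The sequences are RefSeq's, on GRCm38.p6, and are written 5′ to 3′ on the strand of the gene, with motif matches in capitals (on the opposite strand a match reads as its reverse complement). Nfkb2 is shown at chr19:46304637-46304736 (+ strand), Nfkbia, the inhibitor of NF-kB, at chr12:55492657-55492756 (- strand), Tnfaip3 at chr10:19015411-19015510 (- strand) and Madcam1 at chr10:79664409-79664508 (+ strand).
Nfkb2: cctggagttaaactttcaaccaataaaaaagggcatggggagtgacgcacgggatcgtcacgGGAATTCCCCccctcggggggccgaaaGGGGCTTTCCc
Nfkbia: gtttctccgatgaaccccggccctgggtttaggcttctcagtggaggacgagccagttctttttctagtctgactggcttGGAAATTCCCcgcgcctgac
Tnfaip3: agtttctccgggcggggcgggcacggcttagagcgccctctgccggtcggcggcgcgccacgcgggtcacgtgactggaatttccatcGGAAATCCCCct
Madcam1: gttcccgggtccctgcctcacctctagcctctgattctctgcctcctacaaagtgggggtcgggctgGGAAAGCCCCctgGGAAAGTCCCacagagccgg
Of the 24 list members and Madcam1, Vcam1 and Icam1, 23 were matched to a promoter, and 8 of these genes held a match, where 5.31% of all 27025 genes and 4.65% of all 32851 promoters did. A match is a string of letters and shows no binding, and a window without one says nothing of the factor. The other matched genes with the motif were Ltb, Traf3, Rel and Nfkbie. Among the matched genes without it were Traf1, Tnfsf11 and Icam1, which were higher on the Ccl21a-high side as well. The Nfkb2 window holds 2 matches, at 38 and 11 bases before the start, and the Madcam1 window 2, at 83 and 70 bases. Nfkbia, of which the window holds 1 match, had a log2 difference of 2.23.

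MHC class II genes were higher on the Ccl21a-high side at low levels. All 9 genes tested of 11 were called higher, with a median of 2.22. Cd74, the invariant chain, was at 97.4, 124 and 135 CPM against 7.88, 11.8 and 17.2 CPM, a difference of 3.47 ± 0.18, and Ctss, the protease that trims it, was at 31.1, 46.4 and 50.02 CPM against 0.126, 0.251 and 0.565 CPM. Leukocyte markers lay on the same side: their summed level over 10 genes was 35.4 to 63.2 CPM against 6.03 to 22.2 CPM, and 6 of the 7 tested were called higher. Without Ptprc, a gene of the rule, the sums were 34.1 to 57.4 CPM against 5.79 to 20.5 CPM, with 5 of 6 called higher. Cd79a of B cells was at 1.02, 2.30 and 2.92 CPM against 0.112, 0.519 and 0.865 CPM, with the macrophage gene Adgre1 at most 0.315 CPM on the Ccl21a-high side. The part of such cells in the class II levels was not tested. When the limits of the rule were doubled, which lets in 1 library with 169 CPM of Ptprc, none of the 9 class II genes was called higher on the Ccl21a-high side, 1 was called lower, and the list's median was -3.29.

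The interferon and class I list was divided. Of its 28 genes 12 were called higher on the Ccl21a-high side and 4 on the adventitial-type side, with a median of 0.35. H2-K1, a classical class I heavy chain, was at 484, 552 and 619 CPM against 99.6, 170 and 296 CPM, a difference of 1.61 ± 0.28, and B2m, its light chain, was at 1258, 1358 and 2106 CPM against 350, 496 and 702 CPM, a difference of 1.67 ± 0.22. Nlrc5, the transactivator of class I genes, was at 50.2, 68.1 and 85.6 CPM against 4.24, 8.19 and 12.7 CPM, a difference of 3.10 ± 0.29. With the adventitial-type side restricted to its 4 libraries under 100 CPM of Cpa1, a choice made after the data were seen, the list had 10 genes called higher on the Ccl21a-high side and 11 on the other, and its median turned to -0.086.

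Genes by which stroma restrains T cells gave no single direction. Of 17 on the list 13 could be tested, 2 were called higher on the Ccl21a-high side and 6 on the adventitial-type side. Nos2, the nitric oxide synthase that lymph node reticular cells use against activated T cells, was at most 0.223 CPM in any library of either side and could not be tested. Ptgs2, the inducible cyclooxygenase, was at 58.5, 146 and 221 CPM against 52.1, 78.5 and 94.8 CPM, called but overlapping. Ptgs1, the constitutive one, was at 4.61, 8.94 and 11.9 CPM against 81.9, 150 and 225 CPM, a difference of -4.003 ± 0.31, so the 2 cyclooxygenases differed in direction.

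Contractile genes set the sides far apart. Of 32 genes 28 could be tested, with 20 called higher on the Ccl21a-high side and 4 on the other, and a median of 1.77. Acta2, smooth muscle actin, was at 275, 366 and 456 CPM against 9.15, 14.9 and 22.6 CPM, a log2 difference of 4.68 ± 0.20. Des, the filament desmin, was at 692, 779 and 1012 CPM against 18.8, 26.6 and 50.9 CPM, a difference of 4.93 ± 0.29. Myh11, the smooth muscle myosin, was at 167, 270 and 347 CPM against 1.79, 4.72 and 9.40 CPM, a difference of 5.80 ± 0.35. Reticular cells of lymph nodes are known for such a contractile apparatus.

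Tagln, an actin-binding protein, was at 248, 426 and 505 CPM against 6.70, 11.4 and 13.4 CPM, and Synpo2 at 247, 345 and 462 CPM against 3.91, 8.58 and 10.9 CPM, differences of 5.34 ± 0.17 and 5.51 ± 0.17. Pdgfrb, the receptor of pericytes and reticular cells, was at 563, 631 and 783 CPM against 215, 301 and 444 CPM, a difference of 1.17 ± 0.20, whereas Pdgfra, the receptor shared by most fibroblasts, was at 841, 1017 and 1184 CPM against 966, 1231 and 1701 CPM and was not called. Both sides thus held Pdgfra at high levels.

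Notch genes leaned to the Ccl21a-high side, with 10 of 14 tested called higher there and 2 on the other, at a median of 0.89. Notch3, the receptor of mural cells, was at 1142, 1295 and 1632 CPM against 62.2, 92.0 and 138 CPM, a difference of 3.98 ± 0.17. Dll4, a ligand that instructs T cell fate, was at 26.0, 57.3 and 69.0 CPM against at most 0.544 CPM, and Dll1, a ligand needed by marginal zone B cells, was at 13.7, 20.7 and 28.5 CPM against 1.004, 2.46 and 4.60 CPM. Hey2, a Notch target, was at 6.32, 10.1 and 27.01 CPM against 0.223, 0.765 and 1.73 CPM. The 2 ligands, the receptor and the target named here were therefore higher in the same libraries, and activity of the pathway was not tested.

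The adventitial list lay the other way. Of 39 tested genes 35 were called higher on the adventitial-type side, 34 of them without overlap, 3 were called higher on the Ccl21a-high side, and the median was -3.33. Pi16 was at 26.3, 54.8 and 137 CPM in the Ccl21a-high libraries and at 689, 1075 and 2318 CPM in the adventitial-type ones, a log2 difference of -4.16 ± 0.44. Fbn1, fibrillin of the microfibril, was at 787, 896 and 1406 CPM against 6978, 9508 and 16196 CPM, a difference of -3.29 ± 0.22. These 2 genes come with the name of the side.

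Dpp4 was at 5.78, 11.4 and 43.0 CPM against 207, 330 and 406 CPM, a difference of -4.10 ± 0.39, and Cd34 at 57.0, 93.03 and 241 CPM against 1003, 1376 and 1799 CPM, a difference of -3.56 ± 0.34. Ly6a, the progenitor antigen Sca-1, was at 65.8, 95.6 and 291 CPM against 506, 779 and 1520 CPM. Sema3c, a secreted semaphorin, was at 15.2, 20.2 and 78.2 CPM against 485, 703 and 973 CPM, a difference of -4.53 ± 0.35. In each of these genes the Ccl21a-high libraries were low but well above 0, and Cd248, Clec3b and Mfap5 were alike in this, with medians of 130, 211 and 20.9 CPM against 1416, 1078 and 574 CPM. The largest fitted difference on the list was in Ccn3, a matricellular protein, at 1.56, 2.48 and 6.57 CPM against 114, 228 and 338 CPM. The list's 3 members called higher on the Ccl21a-high side were Il1r1, the IL-1 receptor, with a median of 471 against 95.1 CPM, Limch1 and Procr.

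Matrix genes were mostly higher on the adventitial-type side, with members on each side. Of 9 fibrillar collagens 5 were called higher on the adventitial-type side and 2 on the other. Col1a1 was at 3863, 4241 and 4691 CPM against 5233, 6612 and 8344 CPM, a modest difference of -0.54 ± 0.13, and Col3a1 at 4148, 4704 and 8171 CPM against 10988, 15195 and 17882 CPM, a difference of -1.39 ± 0.16. Both ranges were apart, so the adventitial-type libraries held more fibrillar collagen transcript, yet far less extreme than for the markers. Col5a3, a minor fibrillar chain, was at 146, 199 and 481 CPM against 946, 1149 and 1383 CPM.

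Of the 23 other collagens tested 12 were higher on the adventitial-type side and 7 on the Ccl21a-high side. Col4a1, the common basement membrane chain, was at 1942, 2450 and 3023 CPM against 2318, 2992 and 3664 CPM and was not called. Col4a3 and Col4a5, chains of the specialised network, were at 0.206, 0.457 and 4.33 CPM against 15.96, 38.9 and 54.7 CPM and at 3.84, 7.49 and 22.2 CPM against 122, 195 and 214 CPM. Col15a1, which marks a widespread type of fibroblast next to basement membranes, was at 48.0, 101 and 346 CPM against 1254, 1640 and 1967 CPM, a difference of -3.33 ± 0.36. Col26a1 went the other way, at 19.6, 31.7 and 39.5 CPM against 0.781, 2.04 and 5.47 CPM. The type IV chains thus differed among themselves, with the common chain alike and the rarer ones apart.

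Elastic fibre genes were higher on the adventitial-type side in 17 of 23 cases and on the Ccl21a-high side in 3, with a median of -2.004. Mfap4 was at 5.52, 8.88 and 14.8 CPM against 130, 172 and 280 CPM, and Efemp1, a fibulin, at 35.5, 51.4 and 139 CPM against 453, 918 and 1244 CPM. The member with the largest difference had the opposite sign: Ltbp2, a fibrillin-binding protein, was at 502, 636 and 811 CPM against 6.70, 9.39 and 12.7 CPM, a difference of 6.24 ± 0.16. The small leucine-rich proteoglycans showed the same mixture, with 8 of 12 tested called higher on the adventitial-type side and 4 on the other. Fmod, fibromodulin, was at 857, 1079 and 1293 CPM against 32.7, 48.4 and 91.9 CPM, a difference of 4.43 ± 0.22, while Lum and Ogn, lumican and osteoglycin, differed by -2.48 ± 0.24 and -2.45 ± 0.19.

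Basement membrane genes leaned to the adventitial-type side, with laminin alpha chains in both directions. Of 20 genes 10 were called higher on the adventitial-type side and 4 on the Ccl21a-high side. Lama2 was at 59.5, 111 and 387 CPM against 1269, 1566 and 2474 CPM, a difference of -3.33 ± 0.35. Lama3 was at 77.5, 111 and 171 CPM against 1.23, 10.2 and 22.2 CPM, and Lama1 at 19.5, 26.6 and 40.2 CPM against 1.004, 2.65 and 3.92 CPM, differences of 3.68 ± 0.39 and 3.50 ± 0.21. Of these 3 laminin alpha chains, Lama2 was thus higher on the adventitial-type side and Lama3 and Lama1 on the other. Within the Ccl21a-high side Lama2 and Lama3 had the same median, 111 CPM. Of 17 metalloproteinase genes and inhibitors tested, 10 were higher on the adventitial-type side, among them Adamts2, a procollagen peptidase, and 3 on the Ccl21a-high side, among them Mmp9, a gelatinase, at 13.3, 22.8 and 33.7 CPM against 0.446, 1.20 and 1.90 CPM.

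**Figure D3:**
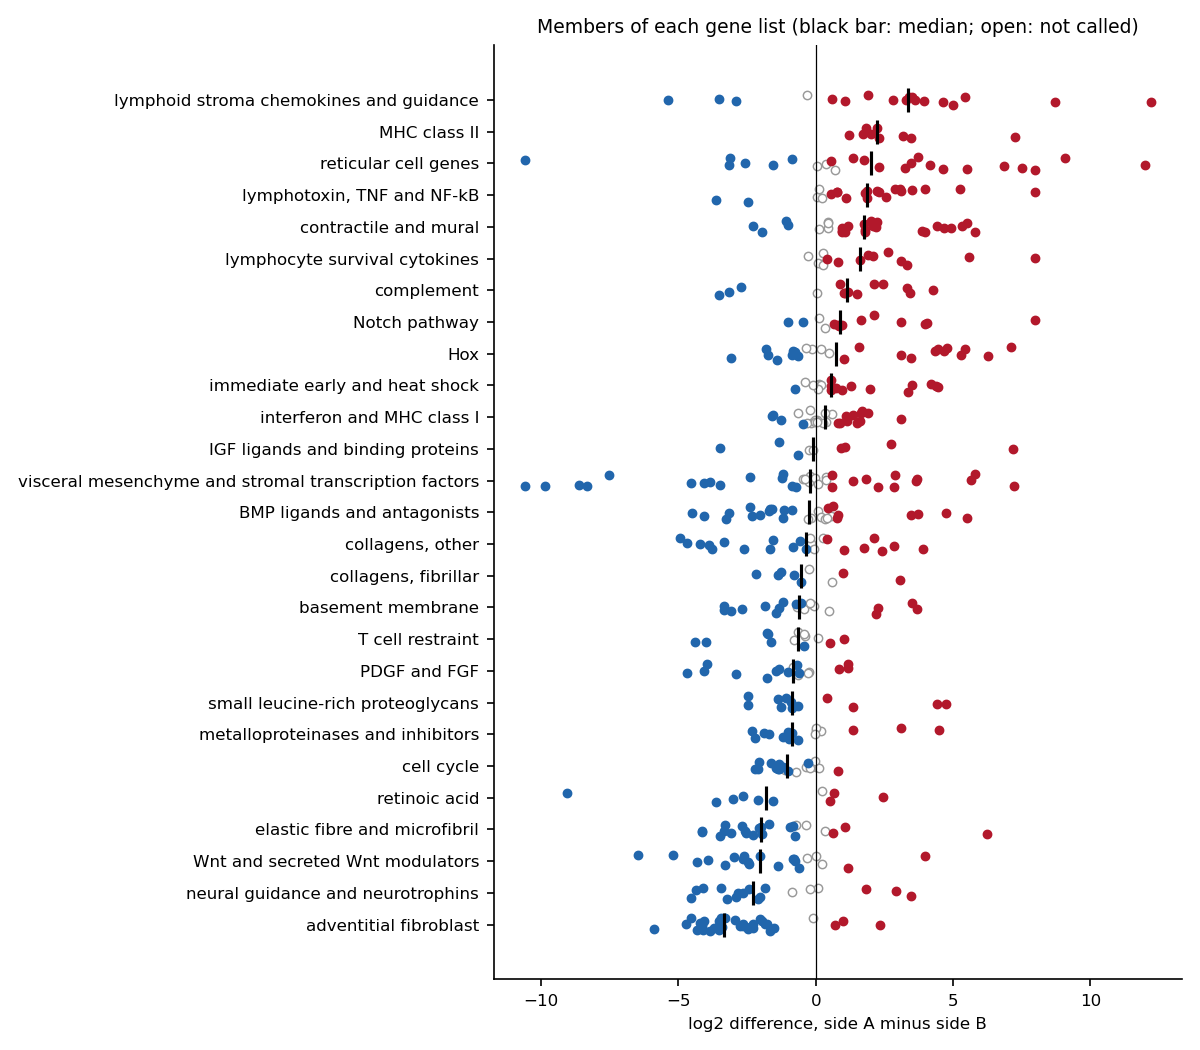
Log2 difference, side A (Ccl21a-high) minus side B (adventitial-type), of every tested member of each gene list, ordered by the list's median (black bar); red and blue points were called, open points were not. Lymphoid chemokines, class II, reticular and NF-kB genes lie at the top with medians of 3.35, 2.22, 2.03 and 1.86, and the adventitial list at the bottom with -3.33; most lists hold members on both sides of 0.

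Secreted morphogens were mostly higher on the adventitial-type side. Of 21 Wnt genes and modulators tested 16 were called higher there and 2 on the other side, at a median of -2.04. Wnt4 was at 0, 0.640 and 2.13 CPM against 9.40, 28.6 and 45.8 CPM, and Wnt10b at 0.413, 2.47 and 5.20 CPM against 21.7, 45.3 and 70.5 CPM, while Wnt6 was at 15.2, 18.5 and 21.9 CPM against 0.834, 1.32 and 1.79 CPM. Sfrp4, a secreted Wnt antagonist, was at 4.66, 6.80 and 18.4 CPM against 109, 200 and 304 CPM. Within the adventitial-type side Wnt4 moved with Cpa1. It was at 9.40 to 22.2 CPM in the 4 libraries under 100 CPM of Cpa1 and at 35.0 to 45.8 CPM in the other 4. Sfrp4 went the other way, at 221 to 304 and 109 to 179 CPM, and Wnt10b and Wnt6 overlapped.

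Of 28 BMP genes 13 were called higher on the adventitial-type side and 8 on the Ccl21a-high side. The ligands Bmp6 and Bmp7 were at 2.168, 3.66 and 8.04 CPM against 49.3, 77.5 and 103 CPM and at 0.591, 2.28 and 3.55 CPM against 25.7, 47.2 and 56.4 CPM, differences of -4.07 ± 0.27 and -4.50 ± 0.38. The antagonist Grem1, as given above, was higher on the Ccl21a-high side, and so was Sostdc1, another antagonist, at 10.01, 17.6 and 22.2 CPM against 0, 0.603 and 2.19 CPM. Of the growth factor lists, IGF genes were split 4 to 3, with Igfbp3 at 1165, 1635 and 1831 CPM against 145, 222 and 410 CPM and Igfbp6 at 25.0, 57.6 and 142 CPM against 407, 630 and 1661 CPM. Of 17 PDGF and FGF genes 10 were higher on the adventitial-type side, led by the ligand Pdgfc at 0.650, 1.98 and 8.12 CPM against 25.1, 52.5 and 71.2 CPM. Pdgfc too moved with Cpa1, at 25.1 to 48.9 CPM in the 4 libraries under 100 CPM of Cpa1 and 56.2 to 71.2 CPM in the other 4.

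Aldh1a2, which makes retinoic acid in mesenchyme, was at most 0.281 CPM in the Ccl21a-high libraries and at 61.9, 89.96 and 114 CPM in the adventitial-type ones. Of 10 retinoic acid genes tested 6 were called higher on the adventitial-type side and 3 on the other. The receptor Rarb, itself a retinoic acid target, was at 0.206, 1.18 and 1.596 CPM against 11.4, 14.7 and 18.6 CPM, a difference of -3.62 ± 0.27. Axon guidance genes and neurotrophins followed, with 12 of 18 called higher on the adventitial-type side and 3 on the other, among them Sema3d at 3.13, 4.44 and 12.4 CPM against 59.2, 95.3 and 144 CPM and Slit2 at 3.43, 6.80 and 28.8 CPM against 51.9, 117 and 150 CPM.

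Transcription factors of regional mesenchyme lay on both sides. Nkx2-3, Barx1, Isl1 and Hand2, known from the mesenchyme of foregut and its organs, were at most 0.225 CPM in the Ccl21a-high libraries. Barx1 was at 15.8, 23.1 and 44.4 CPM, Isl1 at 5.58, 10.1 and 11.1 CPM and Hand2 at 21.6, 33.6 and 39.7 CPM in the adventitial-type ones. In the 12 libraries outside the comparison Barx1 reached 107 CPM and Isl1 62.3 CPM, above any adventitial-type library. Nkx2-3 and Hand2 reached 16.3 and 20.5 CPM there. Over the list of 34 tested factors 12 were called higher on the Ccl21a-high side and 14 on the adventitial-type side, at a median of -0.23. Of those picked out after their values were seen, Tcf21, a factor of visceral mesenchyme, was at 0.177, 0.361 and 0.830 CPM against 61.6, 87.6 and 120 CPM.

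Tbx15 and En1, known from body wall and limb, stood on the Ccl21a-high side and were likewise picked out after their values were seen. Tbx15 was at 39.8, 70.2 and 76.0 CPM against 0.173, 0.415 and 0.693 CPM, and En1 at 9.87, 12.2 and 14.6 CPM against at most 0.781 CPM. In the 12 libraries outside the comparison Tbx15 reached at most 0.774 CPM. General fibroblast factors such as Ebf1 and Twist1 overlapped and were not called.

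Hox genes, which give cells their position along the body axis, were divided. Of 24 tested 12 were called higher on the Ccl21a-high side and 8 on the adventitial-type side, at a median of 0.75. Hoxd9 was at 29.0, 35.2 and 47.1 CPM against 0, 0.254 and 0.504 CPM, Hoxc8 at 13.3, 17.7 and 26.5 CPM against 0.141, 0.494 and 0.923 CPM, Hoxc9 at 4.58, 5.39 and 6.504 CPM against at most 0.252 CPM and Hoxa9 at 3.19, 6.92 and 8.04 CPM against at most 0.326 CPM. These 4, the leading ones, were all on the Ccl21a-high side. On the other side Hoxb5, picked out after its value was seen, was at 0.702, 1.92 and 2.90 CPM against 12.4, 16.2 and 26.3 CPM, a difference of -3.08. In the 12 other libraries of the series Hoxd9 reached 0.235 CPM at most and Hoxc9 0.211 CPM, so among the 27 libraries both were above 1 CPM in the Ccl21a-high ones only.

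**Figure D4:**
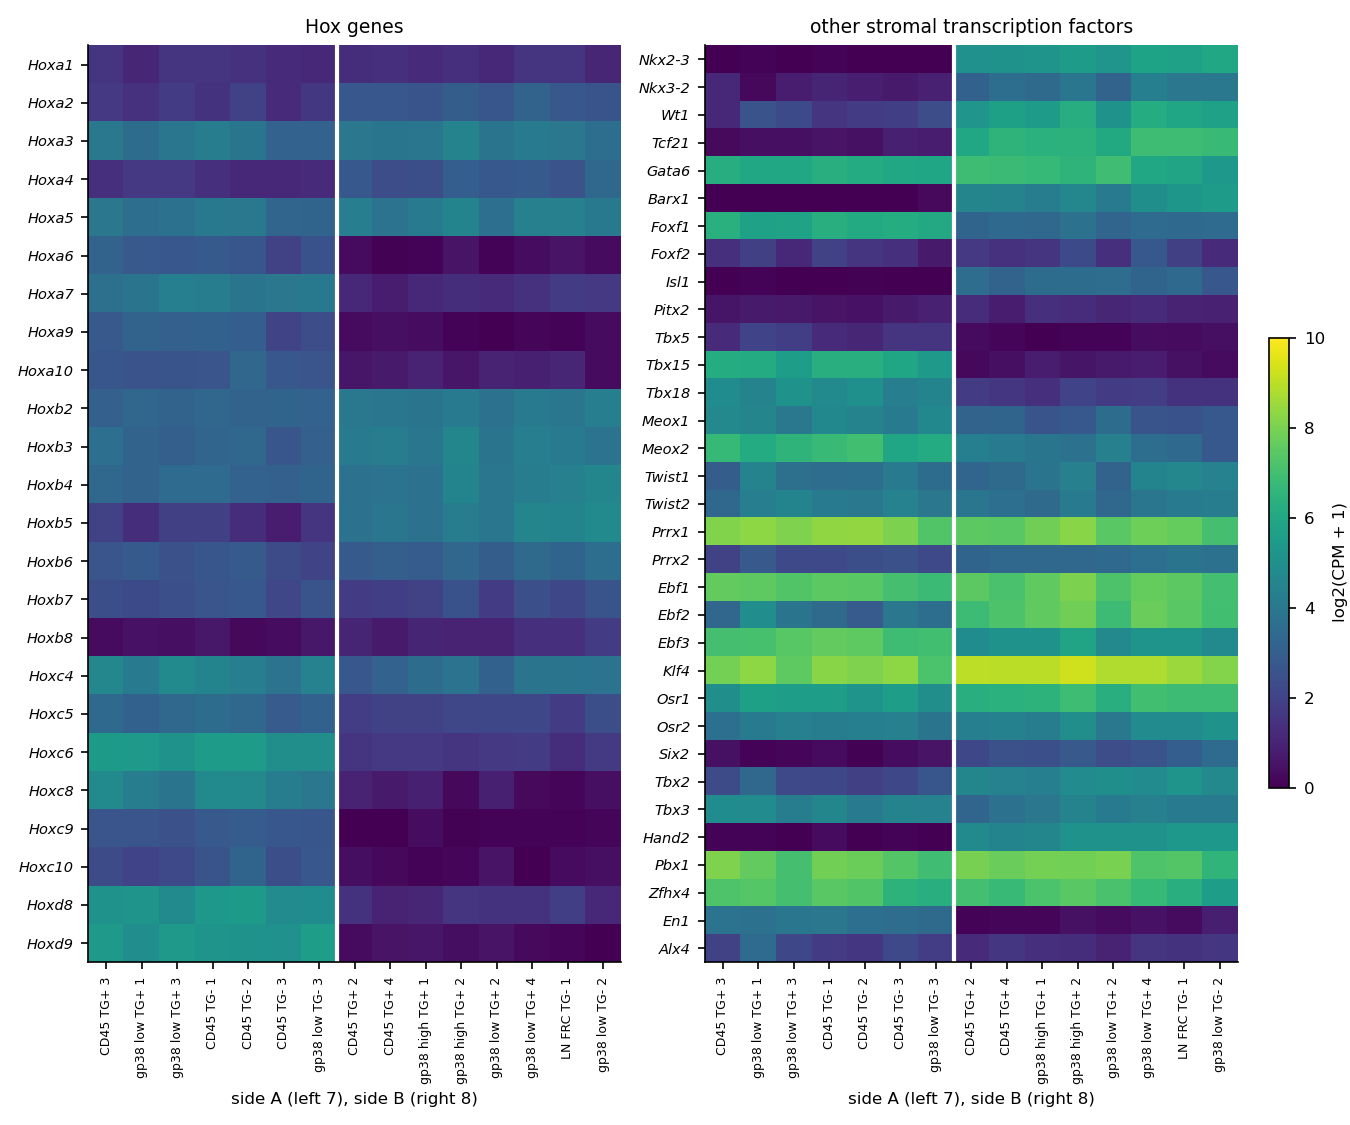
Level, as log2(CPM + 1), of the tested Hox genes (left panel) and of other stromal transcription factors (right panel, not every tested one) in each library, with side A (Ccl21a-high, 7 columns) left of the white line and side B (adventitial-type, 8 columns) right of it. Hoxc6, Hoxc8, Hoxd8, Hoxd9, Tbx15 and En1 are brighter on side A, and Nkx2-3, Barx1, Isl1, Hand2 and Tcf21 on side B, in every library of the side.

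Complement genes were higher on the Ccl21a-high side in 10 of 14 cases and lower in 3, at a median of 1.13. C4b was at 5399, 6427 and 7503 CPM against 348, 534 and 1019 CPM, a difference of 3.45 ± 0.27, and Cfi, the protease that cuts C3b and C4b, at 44.2, 71.3 and 104 CPM against 0.670, 4.65 and 7.12 CPM. C4a and C4b are near-identical copies, and how reads were shared between them is uncertain. Masp1, a protease of the lectin pathway, was at 1.95, 2.60 and 8.12 CPM against 30.4, 41.3 and 63.1 CPM.

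Of 19 immediate early and heat shock genes 12 were called higher on the Ccl21a-high side and 1 on the other, with the heat shock genes in the lead. Hspa1a was at 1206, 1453 and 1839 CPM against 44.2, 77.2 and 103 CPM, a difference of 4.40 ± 0.16, and Hspa1b, its near-identical neighbour, at 1392, 1608 and 2233 CPM against 49.7, 84.0 and 125 CPM. Hsph1 and Dnajb1, co-chaperones of the same response, differed by 4.19 ± 0.22 and 3.51 ± 0.14. Fos, Egr1, Junb, Atf3 and Dusp1, genes switched on within minutes of handling cells, overlapped and were not called. Atf3, for one, was at 255, 462 and 607 CPM against 370, 543 and 924 CPM. Handling of the cells was not tested. Of 20 cell cycle genes 11 were called higher on the adventitial-type side and 1 on the other. Top2a, of dividing cells, was at 3.23, 5.39 and 11.3 CPM against 7.03, 17.5 and 29.7 CPM.

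By size alone the genes leading on the Ccl21a-high side were Ccl21a, Bst1, Dsc3, Tacr1, Serpina1b, Slc7a11, Serpina3g, Csf2rb2, Ccl19, Csf2rb, Pcdh15 and Slc22a3, the 12 largest among 565 eligible genes with a mean of 50 CPM or more and no overlap. Dsc3, a desmosomal cadherin, was at 577, 982 and 1469 CPM against 0, 0.220 and 2.01 CPM. Csf2rb, the common beta chain of the receptors for GM-CSF, IL-3 and IL-5, was at 911, 1098 and 1256 CPM against 0.945, 2.96 and 4.13 CPM, and its paralog Csf2rb2, with which it may share reads, at 578, 728 and 877 CPM against 0.756, 1.67 and 2.501 CPM. Slc7a11, the cystine transporter, was at 238, 685 and 1151 CPM against 0.141, 0.798 and 1.67 CPM. Tacr1, the receptor of substance P, was at 57.9, 68.7 and 130 CPM against at most 0.109 CPM. Ccl21a leads because the rule chose the side by it.

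The same rule on the adventitial-type side, with 836 eligible genes, gave, among others, Sycn, Tm4sf4, Try5, Dcdc2a, Ambp, Pkhd1, Dmbt1, Slc2a2, Ctrc, Ppp1r1b and Pigr. Several of these belong to pancreatic acinar cells or duct epithelium, as Sycn, Try5, Ctrc and Pkhd1 do, and they spread widely: Try5 was at 2.95, 119 and 458 CPM and Pkhd1 at 48.5, 398 and 655 CPM among the adventitial-type libraries. A second look, chosen after the values were seen, kept genes whose highest adventitial-type value was at most 4 times the lowest and that are on no list of cell type markers. It was led by Aldh1a2, Tcf21, Adamts16, Ptgis, Ccn3 and Pcsk6. Ptgis, prostacyclin synthase, was at 0.619, 1.56 and 6.46 CPM against 95.1, 130 and 312 CPM, and Pcsk6, a proprotein convertase, at 7.59, 26.4 and 61.2 CPM against 564, 1007 and 1483 CPM. Adamts16, a secreted metalloproteinase, was at 0.671, 1.28 and 1.97 CPM against 63.5, 109 and 158 CPM.

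Markers of other pancreatic cells went with the adventitial-type side. All 19 acinar genes tested were called higher there, and the summed level of the list was 158 to 17301 CPM against 1.02 to 3.84 CPM. For ducts the counts were 11 of 12, with sums of 400 to 4365 CPM against 44.2 to 85.7 CPM, and for endocrine cells 9 of 9, with 41.7 to 751 CPM against 0.946 to 4.79 CPM. Spp1, osteopontin of duct cells, was at 0.312, 0.631 and 2.12 CPM against 128, 1198 and 1899 CPM. Mesothelial genes were higher in 8 of 10 cases with none on the other side, or in 7 of 9 without Msln, a gene of the rule. They summed to 236 to 1294 CPM against 26.7 to 61.7 CPM, with the keratins Krt8 and Krt18 leading. These keratins moved with Cpa1. Krt8 was at 66.4 to 184 CPM in the 4 adventitial-type libraries under 100 CPM of Cpa1 and at 348 to 533 CPM in the other 4, and Krt18 at 61.5 to 193 and 356 to 511 CPM. Wt1 went the other way without overlap, at 51.7 to 73.7 and 33.7 to 50.1 CPM, and Upk3b overlapped, at 5.14 to 9.82 and 4.67 to 7.72 CPM. The part of such cells in the differences between the sides was not tested. Endothelial genes were divided: Plvap, of fenestrated vessels, was at 132, 186 and 262 CPM against 4.60, 6.81 and 10.1 CPM, yet Cdh5, the endothelial cadherin, was at most 3.99 CPM on either side.

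The remaining marker lists were small or divided. T cell markers summed to 13.8 to 27.4 CPM on the Ccl21a-high side and 2.46 to 6.98 CPM on the other, with 4 of 5 called higher on the former and 0 on the latter. B cell markers summed to 11.4 to 47.7 CPM on the Ccl21a-high side and 0.978 to 3.45 CPM on the other, with 2 of 2 called higher on the former and 0 on the latter. Macrophage markers summed to 82.6 to 101 CPM on the Ccl21a-high side and 24.2 to 103 CPM on the other, with 3 of 4 called higher on the former and 1 on the latter. With the limits of the rule doubled, none of the tested T cell, B cell, macrophage or leukocyte markers was called higher on the Ccl21a-high side, and the medians of these lists were -3.16, -2.17, -4.09 and -4.16, against 2.04, 4.47, 0.84 and 2.24. Lymphatic endothelial markers other than Ccl21a, which the rule used, summed to 84.8 to 153 CPM on the Ccl21a-high side and 168 to 394 CPM on the other, with 3 of 7 called higher on each. Much of these sums was Pdpn, at 61.7 to 103 and 51.1 to 97.3 CPM, and on the adventitial-type side Prox1. Prox1 was at 8.93 to 109 CPM in the 4 libraries under 100 CPM of Cpa1 and at 168 to 217 CPM in the other 4. Blood endothelial markers summed to 200 to 322 CPM on the Ccl21a-high side and 157 to 334 CPM on the other, with 4 of 9 called higher on the former and 3 on the latter. Neither endothelial list gave 1 direction. Glial markers summed to 27.3 to 40.9 CPM on the Ccl21a-high side and 22.6 to 85.2 CPM on the other, with 1 of 5 called higher on the former and 1 on the latter. Adipocyte markers summed to 3.78 to 33.3 CPM on the Ccl21a-high side and 9.81 to 17.6 CPM on the other, with 1 of 4 called higher on the former and 1 on the latter. Islet self-antigens and their regulators summed to 129 to 140 CPM on the Ccl21a-high side and 155 to 211 CPM on the other, with 0 of 7 called higher on the former and 4 on the latter.

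The lists were read again with less epithelial RNA, a choice made after the data were seen. With only the 4 adventitial-type libraries below 100 CPM of Cpa1 in the fit, 7328 genes were called, the adventitial list had 35 called higher on the adventitial-type side at a median of -3.56, and the chemokine list 13 and 3 at a median of 2.94. The 4 libraries were gp38 low TG+ replicate 4, gp38 low TG- replicate 2, LN FRC TG- replicate 1 and gp38 high TG+ replicate 2, and their Cpa1 lay between 15.02 and 50.4 CPM, against 673 to 1309 CPM in the other 4.

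Within each side the libraries also varied. Among the Ccl21a-high libraries, the one labelled gp38 low TG+ replicate 1 was highest in Dpp4 (43.0 CPM), Sema3c (78.2 CPM), Pi16 (137 CPM) and Ly6a (291 CPM), followed in all 4 by CD45 TG- replicate 3. Its summed adventitial list was 10258 CPM, the highest of the side, yet far below the 27225 CPM of the lowest adventitial-type library. Among the adventitial-type libraries Grem1 was 0.893 to 6.35 CPM in the 4 with little Cpa1 and 6.36 to 10.5 CPM in the 4 with much, H2-K1 213 to 296 CPM and 99.6 to 127 CPM, and Nkx2-3 44.4 to 62.8 CPM and 32.5 to 35.7 CPM.

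The labelled genotype, which the rule did not use, was compared within each side in 1 fit of 4 groups. Among the Ccl21a-high libraries, 3 labelled TG+ and 4 labelled TG-, edgeR called 0 of 17049 genes (0.00%), with 287 at an unadjusted p under 0.05. That is fewer than chance alone would give at this limit. The 4 groups shared 1 estimate of spread, so differences on this side could be missed. The alternatives limma-voom and DESeq2 also called 0, and so did edgeR with this side fitted alone. Ccl21a itself had means of 3810 CPM in TG+ and 4094 CPM in TG-, and Ccl19, Cxcl13 and Grem1 had 797 and 821 CPM, 303 and 347 CPM, and 255 and 243 CPM. No difference by label was called on this side. No transcript checks the genotype labels here, since the transgene is meant for beta cells and Ins2 was at most 0.830 CPM in these libraries.

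Among the adventitial-type libraries, 6 labelled TG+ and 2 labelled TG-, 4719 genes were called (27.7%), 2568 higher and 2151 lower in TG+. Without gp38 low TG- replicate 2, and equally with only the 4 libraries of low Cpa1 (2 of each label), edgeR called 0. Without the other TG- library, LN FRC TG- replicate 1, the count was 3274, and without gp38 low TG+ replicate 4 it was 6653. Leaving out either TG- library leaves 1, which is then assumed to vary like the other groups. Cpa1 itself differed between the labels, with means of 683 CPM in TG+ and 30.7 CPM in TG-. The 2 TG- libraries also had the largest unmapped shares of the side, 67.7% and 52.3% of reads, against 33.6% to 42.9% in the TG+ ones. Of these 2, gp38 low TG- replicate 2 had the fewest reads in genes, 8959919, and the other is the side's only library labelled lymph node. With 2 TG- libraries, the acinar share, the unmapped share, the depth and the labelled tissue cannot be told apart from the genotype label.

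Among the genes fixed for this comparison, Des was at 24.2 CPM on average in TG+ and 45.5 CPM in TG-, a log2 difference of -1.19 ± 0.25 (edgeR, adjusted p = 0.0125), and H2-K1 at 156 and 290 CPM, a difference of -1.15 ± 0.31 (adjusted p = 0.0192). Pdpn, the sorted antigen, was at 64.6 and 96.8 CPM, a difference of -0.85 ± 0.23 (adjusted p = 0.0178), and Grem1 at 7.51 and 1.47 CPM, a difference of 1.98 ± 0.71 (adjusted p = 0.0491). Of the adventitial markers Pi16, Fbn1 and Dpp4 were not called, while Clec3b was lower in TG+, at 1046 and 1612 CPM, a difference of -0.89 (adjusted p = 0.0242). The genes of smallest p were Gm37899, Ppnr, Mdn1, Hmgcs1 and 5330406M23Rik among those higher in TG+, and Gm6472, Aqp1, Rtn2, Cbr3 and Rpl13a among those lower. Hmgcs1, an enzyme of cholesterol synthesis, was at 55.4 against 19.1 CPM, and Aqp1, a water channel of vessels and ducts, at 5.25 against 17.1 CPM.

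The difference between the 2 genotype contrasts was tested as an interaction, and edgeR called 0 of 17049 genes (0.00%), with 3721 at an unadjusted p under 0.05, while DESeq2 called 506 and limma-voom 2230. For Des the interaction was 0.99 ± 0.35 on the log2 scale and for Grem1 -1.95 ± 0.85 (edgeR, adjusted p = 0.172 and 0.205). Without gp38 low TG+ replicate 4 edgeR called 1489, so the count depends on the tool and on that library.

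**Figure D5:**
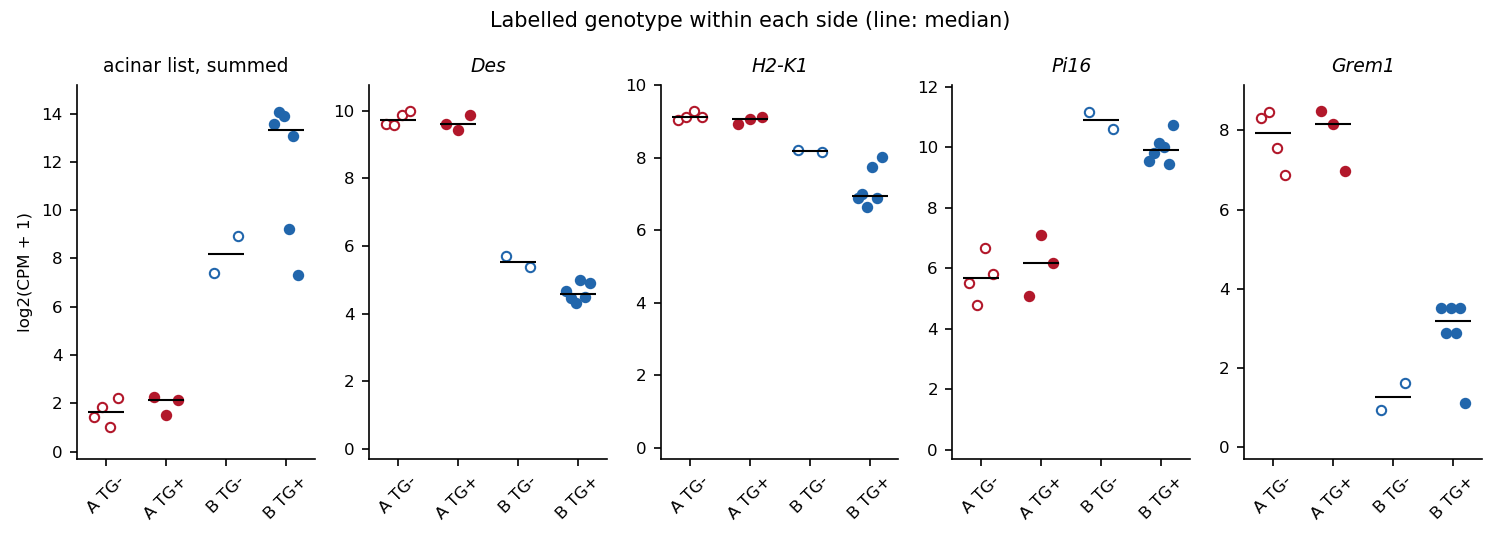
Level, as log2(CPM + 1), of the summed acinar list and of Des, H2-K1, Pi16 and Grem1 in each library by side (A, Ccl21a-high, red; B, adventitial-type, blue) and labelled genotype (open TG-, n = 4 and 2; filled TG+, n = 3 and 6), with medians as lines. On side A the labels overlap in all 5 panels; on side B the 2 TG- libraries are above every TG+ library in Des and H2-K1, and 5 of the 6 TG+ libraries lie above both in the acinar sum.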

How the data were processed

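RNA-seq libraries were made from sorted cells, from total RNA depleted of ribosomal RNA, per the labels' protocols. The submitters' processing notes name bcl2fastq 2.17, Trim Galore 0.4.3, STAR 2.5.2a and the mm10 build. The authors deposited whole-number read counts per gene for each library. Reverse-strand counts were used, CPM was the count over the library's total in genes, and 54409 of 54446 identifiers were matched to a symbol. Library totals were 8959919 to 25194443 reads.

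Counts were tested with edgeR 4.0.16 (TMM, filterByExpr, robust quasi-likelihood, Benjamini-Hochberg threshold 0.05) in R 4.3.3, and the pipeline was tested on simulated data. The sides were fitted as 2 groups, and labelled genotype as 4 groups of side and genotype. Alternatives were DESeq2 1.42.0, limma 3.58.1 with voom, other scaling, filtering, strand, thresholds and libraries. The members and lists were chosen with earlier results of these data known. Named genes were a fixed set by role, up to 12 per direction with the largest difference and a mean of at least 50 CPM, up to 4 per list with a mean of at least 5 CPM, and up to 5 per direction by p for genotype. Other genes were picked after their values were seen. A few genes that these rules name are not reported here. No label says that libraries came from separate mice, so p-values measure only the spread between these samples. Numbers were not taken to pair libraries in the main fits, and whether they do was not settled. The 8 same-numbered pairs that cross the sides deviated together at a mean r of 0.054, but most of them set TG+ against TG-. Within the adventitial-type side, same-numbered TG+ libraries deviated together at r from -0.656 to 0.688. The 12 libraries outside both sides served for ranges and 1 alternative.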

Additional observations from a re-analysis of the deposited data

Results flagged for a closer look

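Of 92 groups of values checked, 3 had 1 library far from the rest, where chance alone marks about 1 in 20. Each was a Ccl21a-high library, and each distance is the gap to the nearest library over the range of the side's 7 libraries, both on the log2(CPM + 1) scale, above the limit that Dixon's rule sets for such a group. Il6 was at 36.1 CPM in the library labelled islet CD45 TG+ replicate 3 and at 116 CPM in the next lowest, a distance of 0.650. Sema3c was at 78.2 CPM in the library labelled islet gp38 low TG+ replicate 1 and at 28.5 CPM in the next highest, a distance of 0.624. Col3a1 was at 8171 CPM in the same library and at 5166 CPM in the next highest, a distance of 0.676.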

How the results depend on the processing

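The count of genes called between the sides was 5180 to 9593 under the alternatives run and 6841 to 7600 with any 1 library left out, against 7320, and 5217 with a replicate block. The genotype count within the adventitial-type side was 0 to 6653 with 1 library left out, 5579 with the replicate block and 0 with only its 4 libraries of low Cpa1, an alternative chosen after seeing the data. The interaction gave 506 genes with DESeq2, 2230 with limma-voom, 0 with the replicate block, and 0 to 1489 with 1 library left out. The cause was not tested. Of 5019 values for 187 named genes under 27 settings, 15 changed sign. With 1 library left out Ltbr was -0.0029 to 0.16 and Il15 -0.065 to 0.19. Ltbr went to -0.083 with the replicate block, -0.033 with genotype as a covariate, -0.0029 without islet gp38 low TG- replicate 3 and -0.20 with low Cpa1. Il15 went to -0.065 without islet CD45 TG+ replicate 3 and -0.055 with low Cpa1, where Pdpn was -0.0044 and Mbp 0.21. With doubled thresholds, which add 1 library with 169 CPM of Ptprc, Cd74 was -3.29, Ptprc -3.20, H2-Ab1 -3.22, H2-Aa -4.54, Lcp1 -2.51, Ptpn6 -3.30 and Cd68 -2.26. The Fisher p was 0.615 there. Genes below 0.335 CPM lie under 3 reads in the shallowest library.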
